A study of Drosophila melanogaster with 6 samples.

Results

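Aminoacyl-tRNA synthetases are the enzymes that join each amino acid to its transfer RNA. They were taken here as every gene in the count table whose FlyBase symbol is made of amino acid codes followed by RS, with or without the ending -m. This gave 33 of 17492 genes. The 18 without the ending are called cytosolic here, and the 15 marked -m are called mitochondrial. All 33 had enough counts for a test. The data are polyadenylated RNA from dissected heads of *Drosophila melanogaster* at 3 days (3d) and 30 days (30d) of adult age, with 3 samples of each age and no other treatment. All samples came from the wild-type laboratory strain 5905, a w1118 line, mutant for the white eye colour gene. The fly culture methods describe ageing of adult males, but the methods for the RNA do not state the sex or how many heads went into a sample. Nothing in the sources used here says that the samples of an age came from separate cultures, so the p-values measure the spread between these samples, which may be technical.

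Protein synthesis in the cytosol and in the mitochondrion draws on largely separate sets of synthetases, and nuclear genes encode both. The naming rule found no -m gene for glycine, histidine, lysine or threonine. Whether the genes for these amino acids, counted here as cytosolic, also serve the mitochondrion was not examined. A synthetase activates its amino acid with ATP and then transfers it to the matching tRNA. The enzymes fall into a pair of unrelated folds, class I and class II, and in animals several of the cytosolic enzymes are held with scaffold proteins in a multisynthetase complex. In mammals, many cytosolic synthetase genes are targets of ATF4, the transcription factor of the integrated stress response.

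Between 3176380 and 3741860 reads were counted on genes in each sample. Of the genes measured, 8773 had enough counts for a test. The level of a gene is its CPM, its reads as a share of the library total after TMM scaling, with the samples of an age always in the order of replicates 1, 2 and 3. All log2 fold changes are 30d minus 3d. A gene was called higher or lower at 30d when its adjusted p-value was under 0.05, by edgeR's quasi-likelihood test, with p-values adjusted by the Benjamini-Hochberg method across all genes tested. For a single gene, an exact two-sided permutation test of 3 samples against 3 cannot give a p-value under 0.1. 3d replicate 1 stood apart from the other 3d samples. The chi-squared of its counts against theirs, per degree of freedom, was 5.87 and 5.28, beside 2.21 between replicates 2 and 3. Between pairs of 30d samples it ran from 2.63 to 4.50, the highest for replicates 1 and 3. The muscle markers of 3d replicate 1 summed to 6017 CPM beside 4056 and 4108. Head tissue markers were present, including *elav* and *ninaE*, and the markers of testis and accessory gland summed to at most 3.28 and 2.37 CPM.

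The age difference was first described for the compartments. Of the 18 cytosolic synthetases, 9 were higher at 30d and 0 were lower by edgeR's test. Among all genes tested, 14.4% were higher and 16.1% were lower, and the cytosolic share higher was 50%. Of the 15 mitochondrial synthetases, 0 were called in either direction. Without adjustment, 3 of them had a p-value under 0.05, with *AsnRS-m* higher and *MetRS-m* and *ArgRS-m* lower. In each direction this was a smaller share than the 14.4% and 16.1% of all genes called with adjustment. By DESeq2's Wald test 0 mitochondrial genes were called, and limma-voom called 1, *ArgRS-m*, as lower. No cytosolic gene was lower by any of these tools or without adjustment. The median log2 fold change was 0.32 over the cytosolic genes and -0.12 over the mitochondrial genes, beside 0.02 over all genes tested. Without 3d replicate 1 the medians were 0.28 and -0.11, and over the fits without 1 sample the mitochondrial median ran from -0.20 (without 30d replicate 3) to -0.07 (without 30d replicate 1). With library size alone as the scaling, which moved the split of calls over all genes from 1259 higher and 1410 lower to 1715 higher and 1053 lower, the medians of cytosolic, mitochondrial and all genes were 0.40, -0.05 and 0.10.

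**Figure D1:**
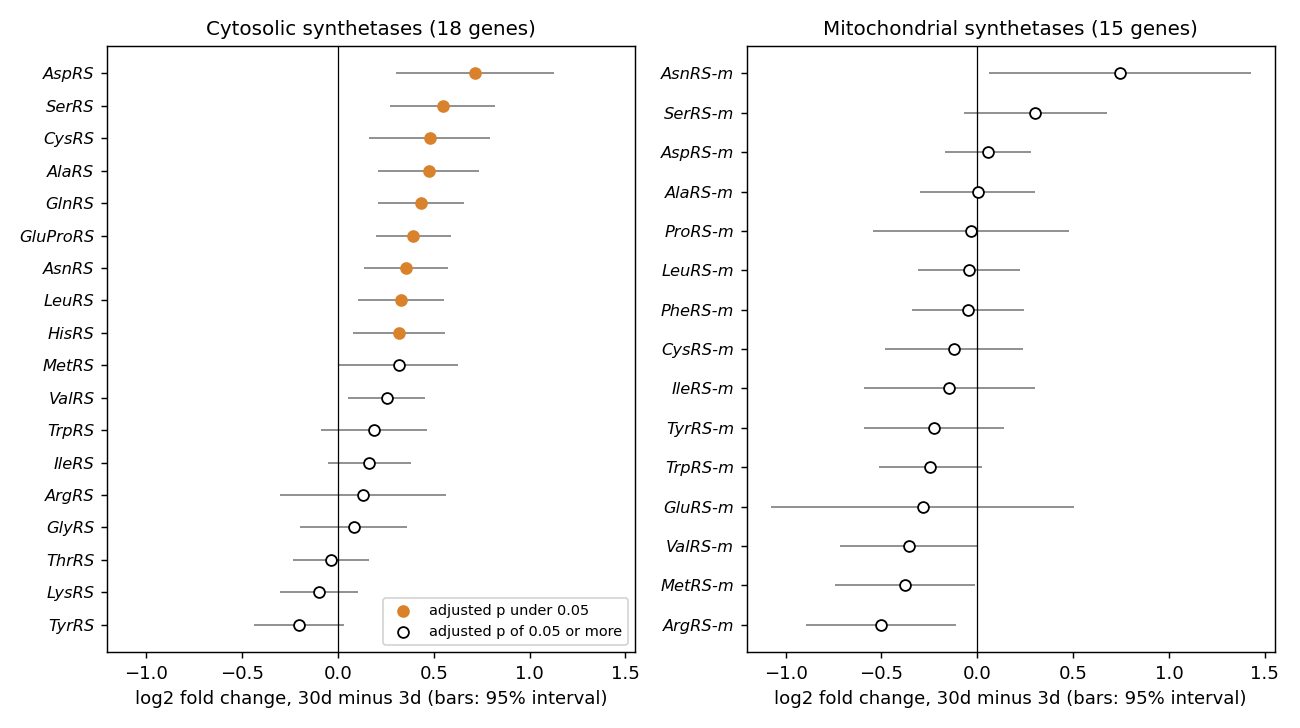
Log2 fold change of each synthetase gene, 30d minus 3d, on the horizontal axis, with the cytosolic genes on the left and the mitochondrial genes on the right. Bars are 95% intervals, and filled points are genes with an adjusted p-value under 0.05 by edgeR's quasi-likelihood test, of which there are 9 on the left and 0 on the right.

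The single samples were then compared without a test. For 10 of the 18 cytosolic genes the lowest 30d value exceeded the highest 3d value, and for 1 the order was the opposite. Over all genes tested, 22.3% had no overlap with 30d higher and 22.5% had none with 30d lower. Among the mitochondrial genes, 0 had all 30d samples above and 5 had all 30d samples below. As a share this was 55.6% of the cytosolic genes higher and 33.3% of the mitochondrial genes lower. Summed over the 18 cytosolic genes, the 3d samples held 717, 778 and 800 CPM and the 30d samples held 898, 902 and 911 CPM. The sum at 30d was 1.18 times that at 3d, and the ages did not overlap. Summed over the 15 mitochondrial genes, the 3d samples held 290, 295 and 277 CPM and the 30d samples held 266, 284 and 272 CPM. Here the ages overlapped, and the ratio was 0.954.

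**Figure D2:**
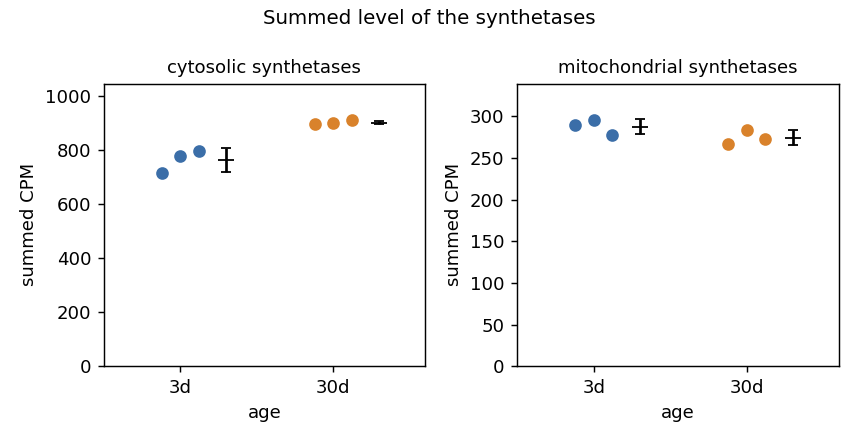
Summed CPM of the 18 cytosolic synthetases (left) and the 15 mitochondrial synthetases (right) in each 3d and 30d sample, with the mean and SD of the 3 samples beside the points. The cytosolic sums lie between 717 and 800 CPM at 3d and between 898 and 911 CPM at 30d, and the mitochondrial sums of the ages overlap.

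Among the cytosolic genes of class II, *SerRS*, the seryl-tRNA synthetase, had 31.2, 34.7 and 32.3 CPM at 3d and 44.9, 41.8 and 57.2 CPM at 30d. The 3d samples were close together, and 30d replicate 3 was the highest. Its log2 fold change was 0.55 ± 0.13 (SE, n = 3 per age), with an adjusted p of 0.00613 by edgeR's quasi-likelihood test. *AlaRS*, which charges alanine and checks for mischarged serine, had 40.1, 43.2 and 56.0 CPM at 3d and 62.7, 67.8 and 63.2 CPM at 30d. 3d replicate 3 stood above the other samples of its age but below every 30d sample, and the log2 fold change was 0.47 ± 0.12 (SE, adjusted p = 0.0106, edgeR). *AsnRS*, the asparaginyl-tRNA synthetase, had 49.3, 56.0 and 56.0 CPM at 3d and 66.5, 75.8 and 64.4 CPM at 30d. The ages did not overlap, and the rise was 0.36 ± 0.10 (SE, adjusted p = 0.0188, edgeR). *AlaRS*, *AsnRS* and *LeuRS* share no exon bases with another annotated gene.

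*AspRS*, the aspartyl-tRNA synthetase, had 11.8, 20.5 and 12.4 CPM at 3d and 26.2, 26.3 and 22.0 CPM at 30d. 3d replicate 2 lay near the lowest 30d sample, and the 2 other 3d samples lay far below. The log2 fold change was 0.72 ± 0.19 (SE, adjusted p = 0.0127, edgeR). Its count is uncertain, because 73.5% of the exon bases of *AspRS* (chr2R:12877004-12883168, plus strand, dm6) also lie in exons of *Nmda1* or of antisense RNAs, and the reads were counted without strand. *HisRS*, the histidyl-tRNA synthetase, had the smallest fitted rise among the genes called, 0.32 ± 0.11 on the log2 scale (SE, adjusted p = 0.0435, edgeR). It shares 8.91% of its exon bases with *Bx*.

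Of the class I genes, *CysRS*, the cysteinyl-tRNA synthetase, had 19.7, 18.6 and 27.0 CPM at 3d and 31.9, 28.7 and 30.3 CPM at 30d. 3d replicate 3 came within 2 CPM of the lowest 30d sample without reaching it. The log2 fold change was 0.48 ± 0.15 (SE, adjusted p = 0.0249, edgeR). *GlnRS*, which charges glutamine and belongs to the complex, had 29.9, 35.8 and 33.2 CPM at 3d and 44.4, 44.0 and 45.8 CPM at 30d. The 30d samples were within 2 CPM of each other and all above the 3d samples, and the gene rose by 0.44 ± 0.10 on the log2 scale (SE, adjusted p = 0.00703, edgeR). *LeuRS*, the leucyl-tRNA synthetase, which in mammals also serves as a leucine sensor for TORC1, had 34.8, 37.7 and 42.7 CPM at 3d and 47.1, 49.2 and 48.6 CPM at 30d. The ages did not overlap, and the log2 fold change was 0.33 ± 0.10 (SE, adjusted p = 0.029, edgeR).

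*GluProRS* encodes a fused enzyme that charges both glutamate, with a class I domain, and proline, with a class II domain. It had 51.9, 54.3 and 56.9 CPM at 3d and 69.2, 71.7 and 73.5 CPM at 30d. The samples of an age lay within 5 CPM of each other, and the ages were more than 12 CPM apart. The log2 fold change of 0.39 ± 0.09 had the smallest SE and the lowest adjusted p-value of the synthetases (SE, n = 3 per age, adjusted p = 0.00584, edgeR). Of its exon bases, 16.6% overlap an antisense RNA.

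**Figure D3:**
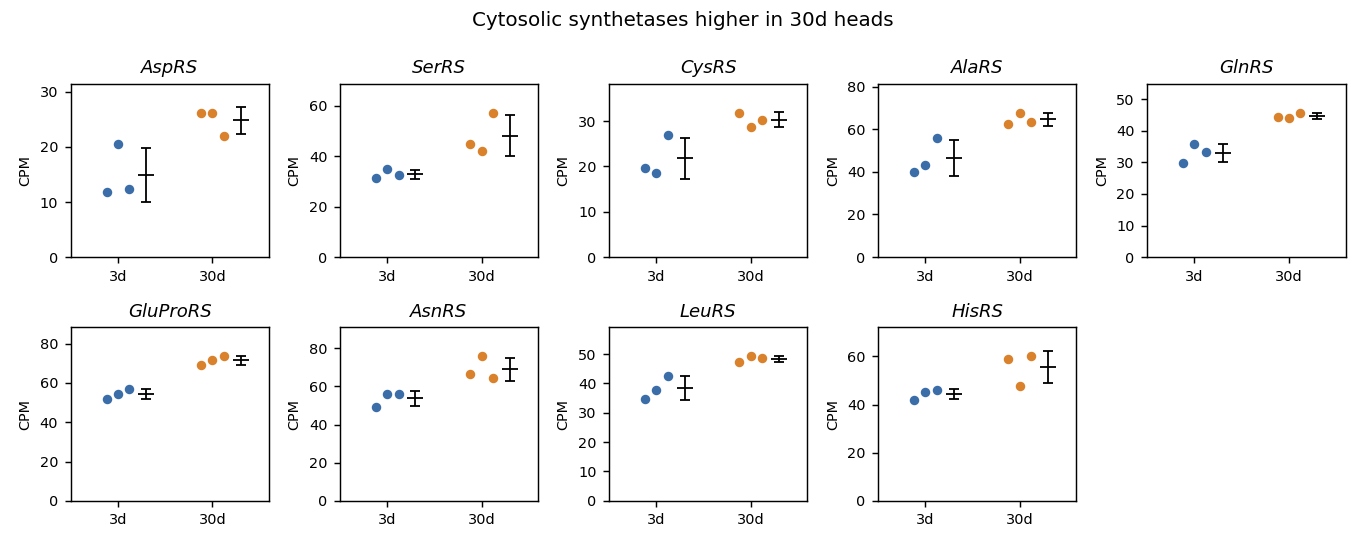
CPM of the 9 cytosolic synthetases called higher at 30d, in each 3d sample (blue) and 30d sample (orange), with the mean and SD of the 3 samples. In each of the 9 panels the lowest 30d point lies above the highest 3d point.

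These calls rested on the samples to different degrees. *AlaRS*, *GluProRS* and *SerRS* passed in all 15 alternative fits, and with *GlnRS* they were the 4 genes that passed whichever sample was left out. The number of cytosolic genes called fell to 5 without 3d replicate 1, when *AsnRS*, *CysRS*, *HisRS* and *LeuRS* were no longer called, at adjusted p-values of 0.0628, 0.0783, 0.117 and 0.104. In that fit, 963 of all genes tested, or 10.8%, were higher. Across the 6 fits that left out 1 sample, their adjusted p-values ranged up to 0.0938, 0.108, 0.133 and 0.104. The call of *HisRS* was kept only without 30d replicate 2, its lowest 30d sample. *CysRS* was also lost without 3d replicate 2 and without 30d replicate 1 or 3, *LeuRS* without 3d replicate 2 and without 30d replicate 2 or 3, and *AsnRS* without 30d replicate 2. *AspRS* was lost without 3d replicate 3, at a log2 fold change of 0.59 and an adjusted p of 0.0607, and its adjusted p was 0.00174 without 3d replicate 2. The largest adjusted p of each of the 4 genes kept, over these 6 fits, was 0.0455 for *AlaRS*, 0.0302 for *GlnRS*, 0.0234 for *GluProRS* and 0.026 for *SerRS*. By DESeq2's Wald test 4 were called, *AlaRS*, *AspRS*, *GluProRS* and *SerRS*. The calls over all genes were fewer there too, with 737 higher beside 1259 in the main fit. The 737 are 5.38% of the 13698 genes with at least 1 count. That is a wider set than the 8773 genes behind the main share of 14.4%.

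The remaining 9 cytosolic genes were not called, with log2 fold changes from -0.20 to 0.32. *ValRS*, the valyl-tRNA synthetase, was nearest to the threshold, with 57.8, 63.6 and 57.8 CPM at 3d and 70.8, 75.2 and 68.1 CPM at 30d. Its ages did not overlap, and its log2 fold change was 0.26 ± 0.09 (SE, adjusted p = 0.0523, edgeR, and 0.0179 to 0.269 over the alternatives). *MetRS*, which charges both the initiator and the elongator methionine tRNAs, had 0.32 on the log2 scale with a 95% interval from 0.01 to 0.63, and its ages overlapped. Without 30d replicate 1 it was 0.18 (adjusted p = 0.373, edgeR), and without 30d replicate 2 it was 0.45 and called (adjusted p = 0.0381, edgeR), with these the limits of the adjusted p over the alternatives. *TrpRS*, *IleRS*, *ArgRS* and *GlyRS* had 0.19, 0.16, 0.13 and 0.08. Across the fits that left out 1 sample, *ArgRS* ranged from -0.06 (without 3d replicate 3) to 0.30 (without 3d replicate 1), and *GlyRS* from -0.01 (without 3d replicate 1) to 0.24 (without 3d replicate 3). *TrpRS* went down to 0.08 without 30d replicate 2.

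The 3 other cytosolic genes had fitted values below 0. *ThrRS*, the threonyl-tRNA synthetase, had 78.8, 83.6 and 96.0 CPM at 3d and 86.4, 84.2 and 81.8 CPM at 30d, and its log2 fold change of -0.03 (95% interval -0.23 to 0.16) was above 0 with library size alone and without 3d replicate 3. *LysRS*, the lysyl-tRNA synthetase, had 47.3, 51.6 and 48.9 CPM at 3d and 46.3, 46.5 and 45.2 CPM at 30d. Every 30d sample of *LysRS* lay below every 3d sample, but the log2 fold change was only -0.10 (95% interval -0.30 to 0.10). *TyrRS*, the tyrosyl-tRNA synthetase, had 58.5, 57.1 and 48.9 CPM at 3d and 44.7, 45.7 and 52.6 CPM at 30d, and its interval ran from -0.44 to 0.03. For these 3 genes the upper limits of the intervals lay below the fitted rises of the genes called.

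Features that did not enter the choice of the genes were then compared. Of all genes tested, 14.4% were higher at 30d by edgeR's test. By class, 3 of 9 cytosolic class I genes and 5 of 8 class II genes were called higher, with medians of 0.26 and 0.34, and *GluProRS* carries both. By the multisynthetase complex, with its members taken as known in other animals, 4 of 8 genes inside (*AspRS*, *GlnRS*, *GluProRS* and *LeuRS*) and 5 of 10 outside were called, with medians of 0.32 and 0.29. The difference between these groups of genes was not tested. Among cytosolic genes with under 5% of their exon bases in another gene, 6 of 15 were called and the median was 0.26, so the 3 called genes left out, *AspRS*, *GluProRS* and *HisRS*, are the ones with more overlap. With library size alone the calls among all 18 cytosolic genes numbered 10, with *ValRS* added, beside 19.6% of all genes higher.

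Among the mitochondrial enzymes, those of class I included the lowest fold changes. *ArgRS-m*, the mitochondrial arginyl-tRNA synthetase, had 15.8, 15.8 and 15.1 CPM at 3d and 9.53, 13.9 and 9.44 CPM at 30d. All 30d samples lay below the 3d samples, with 30d replicate 2 nearest to them. The log2 fold change was -0.50 ± 0.18 (SE, adjusted p = 0.0519, edgeR), and 11.8% of its exon bases overlap *mRpS9*, a mitochondrial ribosomal protein gene. Without 30d replicate 2 it was -0.71, with an adjusted p of 0.0174, and the adjusted p ranged from 0.0174 to 0.256 over the alternatives. *MetRS-m* had 16.1, 12.3 and 13.3 CPM at 3d and 10.4, 10.7 and 10.9 CPM at 30d, and *ValRS-m* had 13.1, 11.7 and 12.2 CPM at 3d and 9.81, 9.57 and 9.44 CPM at 30d. Neither passed the test, with log2 fold changes of -0.38 ± 0.17 (SE, adjusted p = 0.111, edgeR) and -0.36 ± 0.17 (SE, adjusted p = 0.144, edgeR). With *TrpRS-m* and *TyrRS-m*, at -0.24 and -0.23, these are the 5 mitochondrial genes without overlap between the ages.

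All 9 mitochondrial class I genes had fitted values below 0, with a median of -0.24 and a range from -0.50 to -0.04, although *LeuRS-m* was above 0 with library size alone, without 3d replicate 1 and without 30d replicate 1, and *IleRS-m* was above 0 without 30d replicate 2. *GluRS-m* charges glutamate and, in mitochondria of animals, also the glutamine tRNA, which a separate amidotransferase then corrects. It was the lowest of all members in counts, with a mean of 12.8 counts per sample, and its interval ran from -1.08 to 0.51. Its 30d samples held 8, 9 and 19 counts, and its log2 fold change was -0.29. Leaving out 30d replicate 3 made this -0.80, and leaving out 30d replicate 1 made it -0.05. *CysRS-m* and *IleRS-m* had -0.12 and -0.15.

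Of the 6 mitochondrial class II genes, 4 had fitted values above 0, and their median was 0.03. *AsnRS-m* had 4.60, 7.10 and 2.96 CPM at 3d and 10.4, 8.75 and 5.72 CPM at 30d. 3d replicate 2 lay above 30d replicate 3. Its log2 fold change of 0.74 ± 0.32 (SE, adjusted p = 0.095, edgeR) rested on a mean of 23.3 counts per sample. Without 3d replicate 2 it was 1.14, with an adjusted p of 0.0362, and without 3d replicate 3 it was 0.48, with an adjusted p of 0.307. Over the alternatives the adjusted p ranged from 0.0297 to 0.307. *SerRS-m* had 0.30 with an interval from -0.07 to 0.68. *AspRS-m*, *AlaRS-m*, *ProRS-m* and *PheRS-m* lay between -0.05 and 0.06, and all of these but *AspRS-m* changed sign when some single sample was left out. In all, 11 of 15 mitochondrial genes had values below 0, and 8 of 15 did so with library size alone. Across the fits without 1 sample the number was 10 or 11.

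**Figure D4:**
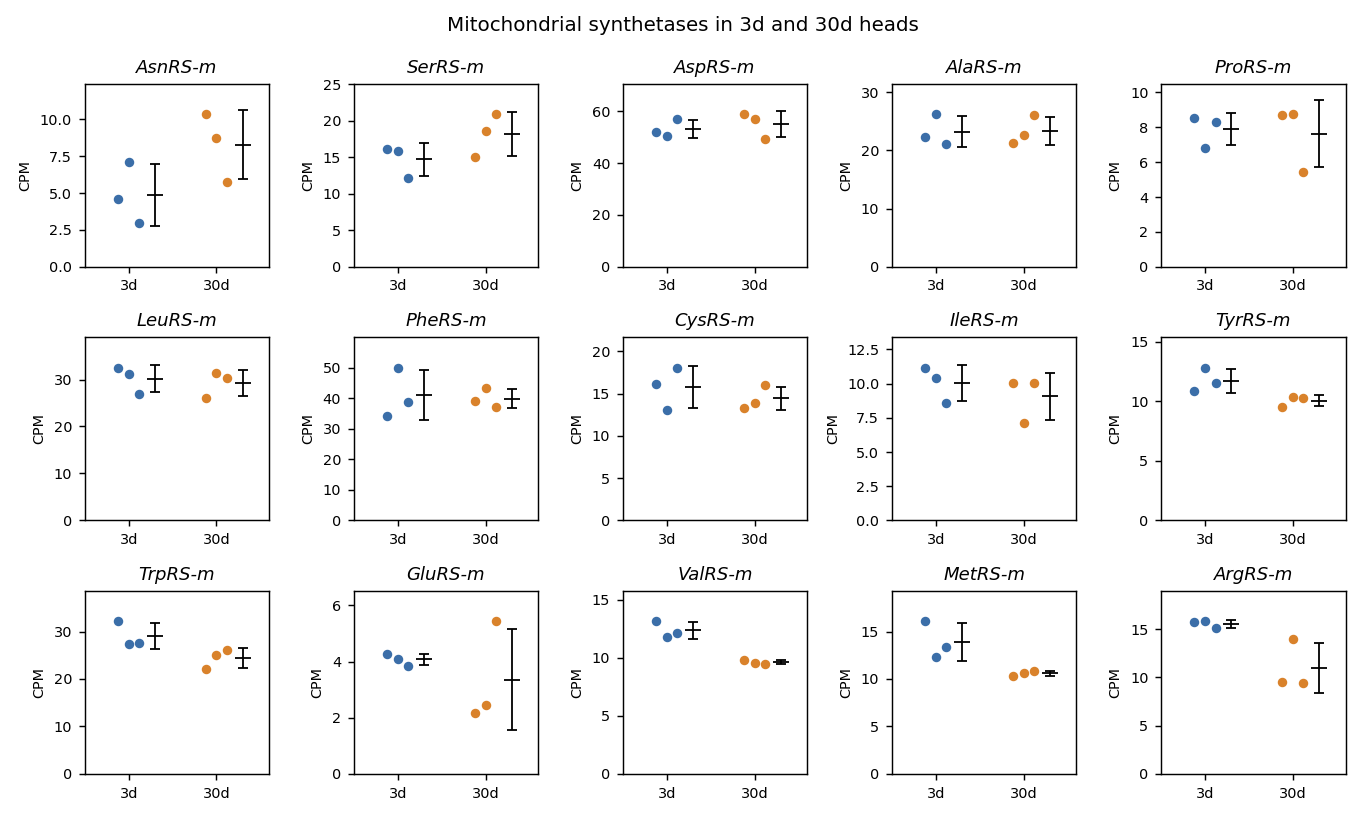
CPM of the 15 mitochondrial synthetases in each 3d sample (blue) and 30d sample (orange), ordered by log2 fold change, with the mean and SD of the 3 samples. The scale differs between panels, and in 5 of them (*TyrRS-m*, *TrpRS-m*, *ValRS-m*, *MetRS-m* and *ArgRS-m*) all 30d points lie below the 3d points.

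The cytosolic and the mitochondrial gene for the same amino acid were set side by side. There were 14 such pairs, with *GluProRS* used for both glutamate and proline. In 13 of the 14 the log2 fold change of the cytosolic gene was the larger, and in 12 without 3d replicate 2, without 3d replicate 3 or without 30d replicate 3. The exception was asparagine, with 0.36 for *AsnRS* and 0.74 for *AsnRS-m*. The pair for methionine had 0.32 and -0.38, and the pair for tyrosine had -0.20 and -0.23. Which pair was furthest apart changed with the alternative. The difference within a pair was not tested.

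**Figure D5:**
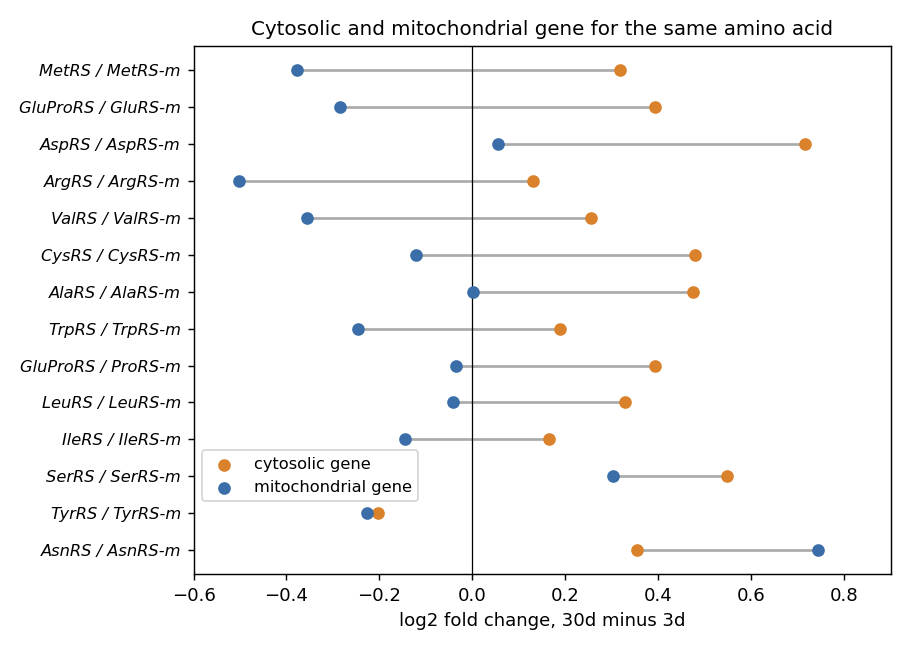
Log2 fold change, 30d minus 3d, of the cytosolic gene (orange) and the mitochondrial gene (blue) for each of 14 pairs charging the same amino acid, ordered by the difference. The orange point lies to the right in 13 pairs, and *AsnRS* and *AsnRS-m* are the exception.

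Levels between genes were compared per kilobase of exon, over all exon bases, those shared with other genes included. Reads that lie wholly within 2 genes were not counted, so a level can be understated where exons are shared, as for *AspRS*, with 73.5% of its exon bases shared. At 3d the cytosolic genes ranged from 6.58 CPM per kb for *AspRS* to 31.0 for *TyrRS*, with a median of 14.9, and at 30d from 10.4 for *MetRS* to 29.1 for *ThrRS*, with a median of 18.8. The span from lowest to highest was thus 4.70-fold at 3d and 2.80-fold at 30d. Over the 15 cytosolic genes with under 5% of their exon bases shared, *MetRS* was the lowest at 3d, at 8.29, and the span was 3.74-fold at 3d and 2.80-fold at 30d. Most neighbours in the order did not differ beyond their spread. At 3d, 3 of the 17 neighbouring cytosolic pairs were further apart than the sum of their SDs (*ThrRS* above *AsnRS*, *LysRS* above *ValRS*, and *GlnRS* above *GluProRS*), and at 30d 1 was (*IleRS* above *GluProRS*).

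The mitochondrial genes spanned a wider range of levels, from 2.40 CPM per kb for *GluRS-m* to 26.9 for *PheRS-m* at 3d, an 11.2-fold span with a median of 5.76. At 30d the same genes were at the ends, at 1.98 and 26.1, and the median was 6.54. *GluRS-m* rests on a mean of 12.8 counts per sample and shares 5.59% of its exon bases. Over the 11 mitochondrial genes with under 5% shared, *MetRS-m* was the lowest at 3d, at 3.22. The span over these 11 was 8.33-fold at 3d and 10.6-fold at 30d. *MetRS-m* has 4314 annotated exon bases but a coding length of 1746 bases, so its rank depends on the length used. Levels by coding length were not computed. *PheRS-m*, a phenylalanyl-tRNA synthetase of a single chain, stood apart from the next gene, *AspRS-m*, by more than the sum of their SDs at both ages. In all, 4 of 14 neighbouring pairs were apart by this measure at each age. Within the pairs for the same amino acid, the cytosolic level per kb was the higher in 12 of 14 at 3d and 13 of 14 at 30d. The median ratio of cytosolic to mitochondrial level was 2.27 at 3d and 3.13 at 30d, and the ratios ran from 0.549 for aspartate, where the shared exons of *AspRS* bear on the value, to 6.86 for asparagine at 3d. *TyrRS* and *GluRS-m* lie 171 bases apart on the minus strand of chromosome 3L, at levels of 31.0 and 2.40 CPM per kb at 3d.

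Genes that work beside the synthetases were then described, with 14.4% of all genes tested higher at 30d and 16.1% lower for comparison. The cytosolic phenylalanyl enzyme is built of separate subunits whose symbols fall outside the naming rule. Its alpha subunit, *alpha-PheRS*, had 24.0, 29.8 and 26.1 CPM at 3d and 33.8, 33.4 and 33.8 CPM at 30d, and rose by 0.33 ± 0.12 on the log2 scale (SE, adjusted p = 0.0442, edgeR). The beta subunit, *beta-PheRS*, had 0.11 and was not called. The complex scaffold *AIMP1* had 11.8, 14.5 and 16.9 CPM at 3d and 19.1, 20.5 and 24.6 CPM at 30d, a rise of 0.56 ± 0.17 (SE, adjusted p = 0.0215, edgeR). Of the 2 other scaffolds, *AIMP2* had 0.14 and *AIMP3* had 0.00. With *Slimp*, a mitochondrial relative of seryl-tRNA synthetase that does not charge tRNA, at -0.16, 2 of the 6 genes of this list were higher and the median was 0.12. Of the amidotransferase that completes mitochondrial glutamine tRNA, *GatA* and *GatB* had -0.22 and -0.40 and were not called. *GatC* had 0 counts in all samples, and all of its exon bases overlap other genes.

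The elongation factors bring charged tRNA to the ribosome and move it along. Among all genes tested, 14.4% were higher at 30d and 16.1% were lower. Of 7 cytosolic factors, 3 rose by edgeR's test. These were *eEF1alpha1*, which delivers aminoacyl-tRNA, at 0.49 ± 0.10 (SE, adjusted p = 0.00386), and the exchange factor subunits *eEF1gamma*, at 0.36 ± 0.09 (SE, adjusted p = 0.0118), and *eEF1beta*, at 0.28 ± 0.09 (SE, adjusted p = 0.0337). The paralog *eEF1alpha2* fell, at -0.37 ± 0.08 (SE, adjusted p = 0.00278, edgeR). Whether any reads were assigned to the wrong paralog was not tested. The list's median was 0.19. Of 4 mitochondrial factors, *mEFG1*, the mitochondrial translocation factor, fell, at -0.61 ± 0.14 (SE, adjusted p = 0.00596, edgeR), with 17.1% of its exon bases shared with an antisense RNA. The other 3 had -0.23 to -0.09 and were not called, and the median was -0.20. Both *mEFG1* and *mEFTu1* had all 30d samples below the 3d samples, an order found for 22.5% of all genes tested.

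Of the integrated stress response, a list of 8 genes, 1 was higher and 1 lower, with a median of 0.08. Among all genes tested, 14.4% were higher and 16.1% were lower. *crc*, the fly ATF4, had 299, 372 and 378 CPM at 3d and 426, 447 and 487 CPM at 30d, a rise of 0.37 ± 0.10 (SE, adjusted p = 0.0122, edgeR). The ages did not overlap, but 73.5% of the exon bases of *crc* are also annotated to *CG46314*. *PPP1R15*, which directs the phosphatase that ends the response, fell, at -0.29 ± 0.08 (SE, adjusted p = 0.0192, edgeR). The kinases *Gcn2*, which senses uncharged tRNA, and *PEK* had 0.07 and 0.22 and were not called. The same held for *AsnS*, asparagine synthetase, at 0.21, for *Thor*, the 4E-BP, at 0.09, for *eIF2alpha* at 0.00 and for *Nmdmc* at -0.06. With *crc*, *PEK* and *AsnS* made up the 3 of 8 genes with no overlap and 30d higher, and 1 had the opposite order. Over all genes tested these shares were 22.3% and 22.5%.

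The heads are mixed tissue, and in bulk RNA fewer cells of a type cannot be told apart from less RNA per cell. Markers of several cell types moved with age, where 14.4% of all genes tested were higher and 16.1% were lower. Of 12 muscle markers, 10 had enough counts for a test and 9 of those fell, with a median of -1.0. Their sum was 6017, 4056 and 4108 CPM at 3d and 2638 to 2781 CPM at 30d. 3d replicate 1, with the highest of these sums, also had the lowest cytosolic synthetase sum, 717 CPM. *TpnC4* was at 0 in 3d replicate 1, and no muscle marker was at 0 in all samples. Of 4 neuronal markers 3 fell, with sums of 3636 to 4346 CPM at 3d and 2653 to 2830 CPM at 30d, and 3 of 4 glial markers fell, with sums of 1476 to 1783 and 1012 to 1055 CPM. Of 4 photoreceptor markers 1 fell, *inaD*. Without adjustment, 3 of these 4 had a p-value under 0.05 by edgeR's test, 2 lower and 1 higher. The higher one was *ninaE*, whose ages did not overlap. Of 3 fat body markers tested 0 were called (1 of them had an unadjusted p under 0.05). The hemocyte markers *Hml* and *NimC1* rose and *Pxn* fell. The part of these markers' changes in the synthetase results was not tested.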

How the data were processed

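Heads of 3d and 30d flies, 3 samples each, were measured by single-end sequencing (100 bases) of polyadenylated RNA. The authors aligned the reads to dm6 with STAR 2.3.0e, counted those within exons with HTSeq 0.5.4e in its intersection-strict mode without strand, and deposited these raw counts per gene. In that mode reads lying wholly within 2 genes are set aside as ambiguous. The annotation release used for counting is not given in the sources used here. Symbols, positions and exon overlaps came from Ensembl 115, on the dm6 assembly, where 17356 of 17492 identifiers were found. All sample columns entered the fits, and 0 were unused.

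The 30d samples were set against the 3d samples with edgeR 4.0.16 (R 4.3.3), using its filter on low counts (minimum count 10), TMM scaling and the quasi-likelihood test, two-sided. P-values were adjusted by the Benjamini-Hochberg method across the genes that passed the filter, and 0.05 was the threshold. Dividing the absolute log2 fold change by the square root of F gave its SE, and intervals are 95%. Tables and plots were made with Python 3.11.15, pandas 2.3.3 and matplotlib 3.10.9. The scripts were tested on simulated data. Replicates differed by more than counting error (chi-squared per degree of freedom 2.21 to 5.87), and reads without molecular identifiers are not independent molecules.

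Values in every sample are given for up to 8 cytosolic and 8 mitochondrial genes past the threshold, in order of fold change, and the other genes are summarised. Genes not past the threshold that are given in every sample were chosen after their values were seen. Of 65 genes on the lists of synthetase partners, amidotransferase subunits, elongation factors, stress response genes and cell type markers, 64 were in the count table, and the other was not analysed here. The members and lists were chosen with earlier results of these data known.

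Other settings tried were scaling by DESeq2's size factors or by library size alone, limma-voom (limma 3.58.1), the Wald test of DESeq2 1.42.0, the replicate number as a block, a filter that required at least 10 counts in every sample or only 1 count in all, removal of a trend with gene length, and fits without each sample in turn. Promoter and protein sequences were not used here.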

Additional observations from a re-analysis of the deposited data

How the results depend on the processing

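The counts of cytosolic genes higher at 30d were 9 or 10 under every alternative other than DESeq2's Wald test and the fits that left out 1 sample. Under those with 9 or 10, the share of all genes higher ran from 9.94% (no filter beyond 1 count) to 19.6% (library size alone). DESeq2's Wald test gave 4, beside 5.38% of all genes with at least 1 count. The fits that left out 1 sample gave 5 to 8, where 9.87% to 13.6% of all genes tested were higher. No cytosolic gene was lower under any of the 15 alternatives. Of the mitochondrial genes, 1 was lower with DESeq2's size factors, with limma-voom, and with no filter beyond 1 count, each time *ArgRS-m*, and 1 was higher with no filter beyond 1 count, *AsnRS-m*. In these 3 fits, 11.8% to 16.6% of all genes were lower, and 9.94% were higher with no filter beyond 1 count. Leaving out 1 sample gave 0 to 1 higher and 0 to 1 lower, where 11.3% to 15.65% of all genes tested were lower. Of 270 single values of cytosolic genes under the alternatives, 241 kept their side of the threshold, 21 lost the call and 8 gained it. Of 224 mitochondrial values, 216 kept their side and 8 gained a call. No called gene changed sign. With at least 10 counts in every sample, *GluRS-m* was not tested. The cause of these differences was not tested.

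With the replicate number as a block (replicate block), 10 cytosolic genes were higher, with *ValRS* added, and 1 mitochondrial gene was higher (*AsnRS-m*) and 1 lower (*ArgRS-m*). In that fit, 15.8% of all genes tested were higher and 17.3% were lower. The labels do not say what a number shares, and the deviations of same-numbered samples correlated at 0.143, 0.0167 and 0.0522, so the numbers were not taken as pairs. Not every sample correlated best with its own number.

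The mitochondrial genes rested on means of 12.8 to 189 counts per sample and the cytosolic genes on 70.3 to 297. The median SE of a log2 fold change was 0.17 for the former and 0.11 for the latter, so the mitochondrial values are the less precise.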
